A study of Mus musculus with 5 samples.

Results

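This account describes where ribosomes sat in mouse brain slices before a translation inhibitor was applied. It rests on the 0 min library of a homoharringtonine time course, which is 1 of the 5 libraries of the series and was chosen by its label, not by a measured value. The slices were hippocampal-cortical, came from wild type male C57BL/6N mice aged 28 to 35 days, were 400 µm thick and recovered for 3 to 4 h in artificial cerebrospinal fluid. Each library is 1 pool of 10 slices from 2 to 3 mice, and the libraries at 5, 10, 30 and 60 min of 20 µM homoharringtonine were not used. The labels do not state whether the 0 min slices received the vehicle, 0.05% DMSO. With 1 library there is no replicate, so no test was run, and the 95% intervals given cover counting error only.

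Ribosome profiling sequences the short mRNA fragments that a ribosome shields from nuclease, so that the number of fragments (footprints) on a coding sequence follows how many ribosomes are on that mRNA. The number depends both on how much mRNA there is and on how densely each mRNA is loaded. No matched RNA measurement was used here, so these cannot be told apart. Homoharringtonine blocks ribosomes that have just started, and before it acts the profile holds ribosomes along whole coding sequences.

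The library held 7155147 footprint counts on 10329 genes with coding sequences (CDS) of 603 to 24099 nt. The median gene had 208 counts, the lowest count was 11, and 3297 genes (31.9%) had fewer than 100. An exact Poisson interval for 208 counts reaches from -13.1% to 14.6% of the value, for 11 counts from -50.1% to 78.9%, and for 10000 counts from -1.95% to 1.98%. Values per length are given on 2 scales. The density is the authors' count per kilobase of the CDS less 600 nt, and TPM (transcripts scaled to a fixed total) is the authors' length-adjusted share of the library, which summed over all genes to 1000034 after rounding to whole numbers. The median density was 221 counts per kb. TPM was listed for 18527 genes, of which 12031 were above 0 with a median of 20 TPM, and 1906 genes (10.3%) reached 100 TPM. No CDS in the count table was under 603 nt. Ranks and shares below are therefore of the listed genes and not of all mRNAs.

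Labels of genotype and sex were set against their genes. Fmr1, the gene of the fragile X protein FMRP that the study's knockout strain lacks, had 717 counts and 59 TPM in these wild type slices (chromosome X, 68678536 to 68717963 in GRCm38). Its relatives Fxr1 and Fxr2 stood at 79 and 57 TPM, so the 3 members of the family lay close together. No knockout library was used, so the level of Fmr1 was not set against one. The Y-linked genes Ddx3y, Eif2s3y, Uty and Kdm5d had 80, 23, 9 and 7 TPM, in slices labelled male, while Usp9y and Sry were listed at 0.

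Ribosomes were spread over many mRNAs, with a minority carrying most of them. Of the 10329 genes, 600 (5.81%) held 50% of the counts. The 10 genes with the most counts held 5.15%, the top 100 held 22.3% and the top 1000 held 60.4%. By density 350 genes reached 50% of the total, and by TPM 468 genes did.

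**Figure D1:**
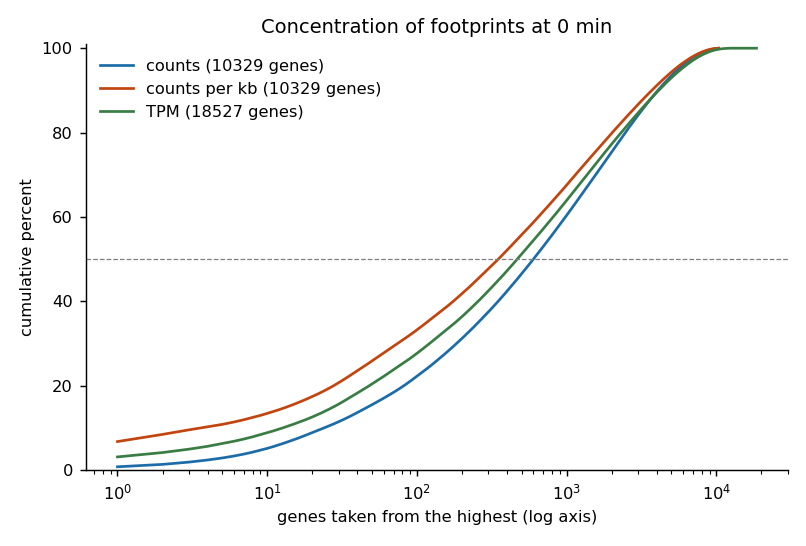
Cumulative percent of the 0 min library (vertical axis) against the number of genes taken from the highest down (horizontal log axis), for counts, for counts per kb and for TPM, with 50% marked by the dashed line. The curves cross that line at 600, 350 and 468 genes.

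Chaperones, the cytoskeleton and the secreted glial protein gene Sparcl1 were among the mRNAs with the most ribosomes in absolute number. Hspa8, the constitutive cytosolic chaperone of the Hsp70 family (chromosome 9, 40801276 to 40805202), had 40918 counts, 0.572% of the library (exact 95% interval 0.566 to 0.577%). Sparcl1, a matricellular protein that astrocytes secrete (chromosome 5, 104079108 to 104114088), had 38516 counts, 0.538% (0.533 to 0.544%). No mRNA took as much as 1% of all counts.

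App, the amyloid precursor protein, followed with 35988 counts, and the dendritic microtubule protein gene Map2 with 33774. Actb, cytoplasmic beta-actin, had 33635 counts, Cltc, the clathrin heavy chain, 33092, and Ncdn, the neuronal protein neurochondrin, 32740. Hsp90aa1, an Hsp90 chaperone, had 32688 counts and Map1b, a large microtubule protein of axons, 30992. The counts of these mRNAs span less than 2-fold, but their CDS lengths do not: Actb is listed at 1128 nt and Map1b at 7395 nt. Per length, Map1b had a density of 4561 counts per kb and Actb 63703, among the highest.

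Ranked per length, short mRNAs of housekeeping, glial and signalling proteins came forward. On the TPM scale Clu, which encodes the extracellular chaperone clusterin, stood first with 31278 TPM, followed by Actb with 10357 and Actg1, cytoplasmic gamma-actin, with 7986. Mbp, myelin basic protein, had 6775 TPM and Ywhaz, the zeta member of the 14-3-3 adaptor proteins, 6648. Ubb, a polyubiquitin gene, had 5376 TPM. The gap between the first and the second gene was the widest of this ranking, and for Clu the 2 tables disagree, as set out in the next paragraphs.

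Further high ranks were held by Rtn3, a protein that shapes endoplasmic reticulum tubules, with 5196 TPM, and by Sparcl1 with 5135. Ywhah, another 14-3-3 member, had 4532 TPM, and Gpm6a, a neuronal membrane glycoprotein, 4331. Ckb, brain creatine kinase, had 4293 TPM, Aldoa, a glycolytic aldolase, 4015, and Apoe, the lipoprotein of astrocytes, 3869. Zwint, known as a kinetochore partner in dividing cells, was the fifteenth with 3787 TPM. The top 10 genes by TPM held 8.86% of all TPM. Reads of near-identical genes, such as the actins, the tubulins, the 14-3-3 family and polyubiquitin, can be assigned to the wrong copy, and RSEM, which deposited names mention, shares such reads out by a statistical model.

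By the deposited density the order differed, since 7 of its 20 highest genes were not among the 20 highest by TPM in the count table. Rtn1, a reticulon of neurons, stood first with 602741 counts per kb, Rtn3 had 150956 and Tle1, a transcriptional corepressor, had 96000. Their listed CDS, 627, 714 and 603 nt, leave 27, 114 and 3 nt after the 600 nt are taken off, and Tle1 reached its rank with 288 counts. On the TPM scale Rtn1 stood at 2934 and Tle1 at 17. Reep1, at 42833 counts per kb with 6 nt left, and Chtop, at 31889 with 9 nt left, came from 257 and 287 counts in the same way. The remaining genes of that top 20 with CDS under 800 nt were Ywhaz, Ywhaq and Ywhah, with 51210, 37797 and 35142 counts per kb.

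Other mRNAs of the density ranking had enough listed length for both scales to keep them near the top. Actb, Aldoa, Ubb and Actg1 had 63703, 51055, 48638 and 47837 counts per kb. Ckb had 40694 counts per kb, Gpm6a 37658 and Apoe 35217. Glul, the glutamine synthetase of astrocytes, had 34611, Cpe, the carboxypeptidase that trims neuropeptides, 33110, and Ndrg4, a protein of the Ndr family abundant in brain, 32292. At the other end, among genes with at least 100 counts, Dnah9, an axonemal dynein of cilia, had the lowest density, 8.32 counts per kb from 107 counts. Lama5, a laminin chain of basement membranes, had 9.95 counts per kb and Syne2, a giant protein of the nuclear envelope, 11.8.

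The disagreement between the tables was measured across genes. With TPM set against density times the typical ratio of 0.104 TPM per count per kb, 379 of 5808 genes with at least 20 TPM (6.53%) differed more than 2-fold. In 322 of them TPM was the higher value and in 57 the lower. Among genes with a CDS under 800 nt the share was 127 of 634 (20.0%), against 217 of 4387 (4.95%) among genes of 1000 nt or more. The count table lists 1 transcript per gene, and the length that would bring both tables together is another one for these genes.

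Taken after the 600 nt are off, that length was 53.6 nt for Clu in place of 747 nt, and its density scaled to TPM would be 2245 in place of 31278 TPM. For Map2 it was likewise 2368 nt in place of 804 nt, and the scaled density of 4355 stood against 1479 TPM. Sptan1, the alpha chain of the spectrin membrane skeleton, showed the opposite order, 692 TPM against a scaled density of 234. Xbp1, a transcription factor of the unfolded protein response, had 477 TPM from 266 counts against a scaled density of 53.4. Whether isoform assignment or another step lies behind these differences was not tested. TPM is used for gene groups from here on, and a gene over 2-fold apart is marked where it leads a group, or here. Cpne4, Etv1, Gabbr1, Nrcam and Prkar1b, named below, also had TPM over 2-fold above the scaled density, and Nptn had it over 2-fold below.

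**Figure D2:**
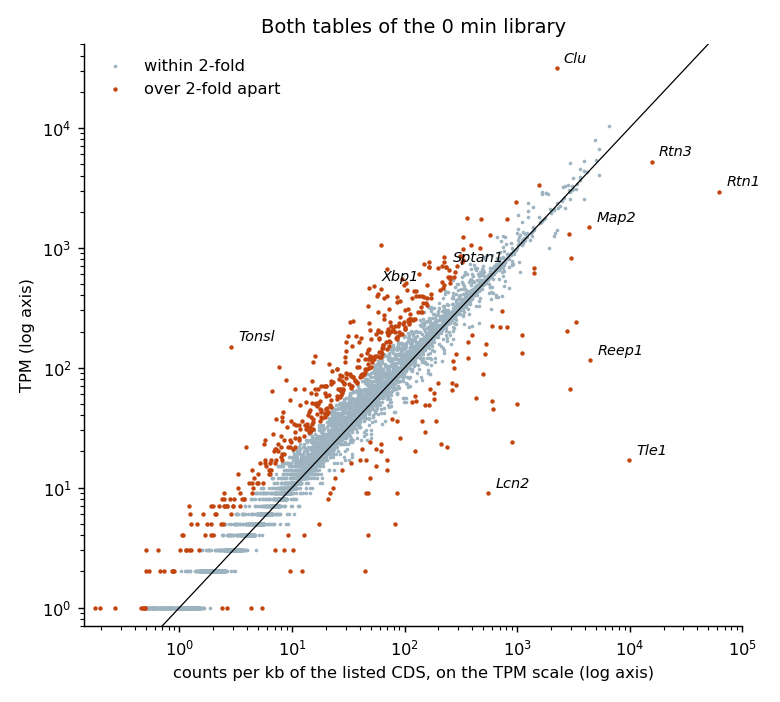
TPM (vertical log axis) against counts per kb of the listed CDS scaled to TPM (horizontal log axis) for each gene of the count table with TPM above 0, 1 point per gene, with the line of equality. Points over 2-fold apart are in orange, with Clu far above the line and Rtn1, Rtn3, Map2, Reep1, Tle1 and Lcn2 below it.

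Cell types came next. Markers of neurons, astrocytes and myelinating oligodendrocytes were far above the typical gene, and lists for mural cells, ventricle lining and blood had the lowest medians. The median of the pan-neuronal list was 663.5 TPM, with 13 of the 14 genes in the tables at 100 TPM or more, against 5 TPM for all genes, 20 TPM for all genes above 0 and 10.3% of all genes at 100 TPM. The astrocyte median was 309.5 TPM (17 of 20 genes at 100 or more), that of oligodendrocytes 257 (14 of 19), of excitatory neurons 182.5 (10 of 14) and of inhibitory neurons 112 (7 of 13). Microglia stood at 41 TPM (5 of 21), oligodendrocyte precursors at 20.5 (1 of 12) and fibroblasts and meninges at 13 (1 of 11). In a bulk sample fewer cells of a type and less RNA per cell cannot be told apart, so these medians do not give cell numbers.

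**Figure D3:**
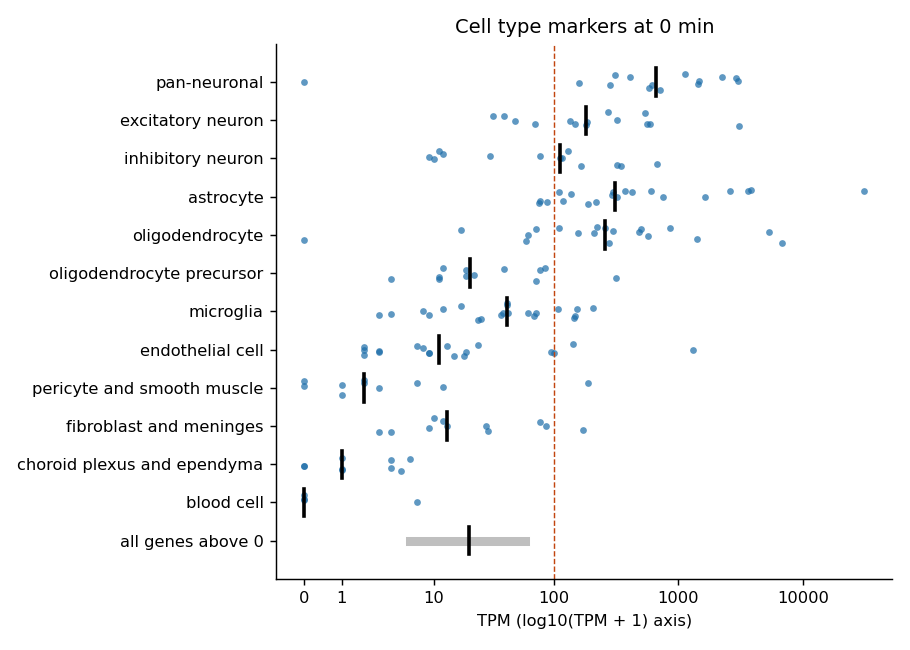
TPM of each marker gene (points) in 12 cell type lists at 0 min on a log10(TPM + 1) axis, with the list median as a black bar and, in the bottom row, the median and quartiles of the 12031 genes above 0. The dashed line marks 100 TPM, and the medians run from 663.5 TPM for pan-neuronal markers to 0 TPM for blood cells.

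Among the neuronal markers Syp, the vesicle protein synaptophysin, had 3051 TPM and Uchl1, a neuronal deubiquitinase, 2903. Map2 had 1479 TPM. The lowest measured member was Elavl4, an RNA-binding protein of neurons, with 160 TPM. Snap25, a SNARE protein found in nearly all neurons, was listed at 0, which for a gene of that kind can be a failed estimate and is not a level. The same limit holds for the other genes given as 0 in this account, which need not be free of ribosomes. Stmn2 is not in the tables used here.

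Excitatory markers were led by Camk2a, the alpha subunit of the calcium-calmodulin kinase of synaptic plasticity, with 3053 TPM. Slc17a7, the vesicular glutamate transporter of cortex and hippocampus, had 595 TPM, the transcription factor gene Mef2c 560 and the neuronal pentraxin gene Nptx1 537. Slc17a7 was 12.4 times as high on the TPM scale as Slc17a6, the transporter typical of thalamus and brainstem, which had 48 TPM.

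Inhibitory neurons were marked by Gad1 and Gad2, the enzymes that make GABA, with 677 and 131 TPM. Lamp5, a protein of neurogliaform cells, had 346 TPM, and Cnr1, the cannabinoid receptor of cholecystokinin cells, 164. Slc32a1, the vesicular GABA transporter, had 112 TPM. The lowest was Dlx1, a transcription factor of the interneuron lineage, with 9 TPM from 12 counts. Of the genes that name interneuron subclasses, Sst, Pvalb, Vip, Npy and Cck were not analysed here, while Calb2 had 117 TPM, Kcnc1, a fast potassium channel, 77, Reln 30, Lhx6 12 and Htr3a 10.

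Astrocyte markers came next to neurons in their median. Clu led with 31278 TPM, a value 13.9 times its scaled density, followed by Apoe with 3869, Glul with 3662 and Slc1a2, the glutamate transporter that clears synapses, with 2594. The lowest was Gjb6, a connexin, with 75 TPM, so that all 20 genes exceeded the median of all genes. The 20 genes summed to 47117 TPM, 4.71% of the library, and without Clu to 15839 TPM, 1.58%. In counts the same genes held 1.75% (exact 95% interval 1.74 to 1.76%). Gfap, the filament of reactive astrocytes, had 372 TPM and Aqp4, their water channel, 293.

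Oligodendrocyte markers were led by the myelin genes. Mbp had 6775 TPM, Cnp, an enzyme of myelin, 1423, and Qdpr, a dihydropteridine reductase that these cells make in quantity, 854 (2.76 times its scaled density). Mag and Mog, proteins of the myelin surface, had 501 and 300 TPM, while Myrf, the transcription factor that turns on myelin genes, was lowest with 17. Cldn11, a tight junction protein of myelin, was listed at 0 and has no entry in the count table, so that value is not read as a level. Among precursor markers Olig1, a transcription factor shared with mature cells, had 316 TPM, Olig2 85, Pdgfra, the growth factor receptor that defines precursors, 77 and Sox10 71. Gpr17, which marks cells about to mature, had 39 TPM, and Bmp4 was lowest with 4 from 21 counts.

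Among microglial markers the complement gene C1qb had 153 TPM. Ctss, a lysosomal protease, had 147 TPM and C1qa 144. Csf1r, the receptor microglia depend on, had 72 TPM from 1677 counts, Cx3cr1 38 and P2ry12, a receptor of resting microglia, 24. The lowest was Sall1, a microglial transcription factor, with 3 TPM from 100 counts. Siglech and Ptprc, at 107 and 37 TPM, were each about 5 times their scaled densities (5.01 and 5.14).

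Endothelial genes were uneven, and mural, ventricular and blood genes held few ribosomes. Of endothelial markers Bsg, a glycoprotein that other cells make too, had 1318 TPM and Slc2a1, the glucose transporter of the blood-brain barrier, 142, while Pecam1 and Cdh5, which define endothelium, had 13 and 18. The median of the endothelial list was 11 TPM, between the 5 TPM of all genes and the 20 TPM of all genes above 0. Of its 18 genes 3 (16.7%) reached 100 TPM, against 10.3% of all genes, and 9 (50%) reached 10 TPM, against 43.7%. Tek, Tie1 and Emcn, receptors and a sialomucin of endothelium, shared the lowest value of 2 TPM. The mural cell median was 2 TPM, with Vtn, which encodes vitronectin of pericytes, at 190 and Tagln and Myh11 of smooth muscle at 0. The list of choroid plexus and ependyma reached at most 6 TPM (Foxj1, the master gene of motile cilia), Cldn2 and Ccdc153 were at 0, and the transthyretin gene Ttr was not analysed here. Of the blood genes in the tables Ccr7 had 7 TPM, and Alas2, Slc4a1 and Cd79a were at 0. The defining haemoglobin genes were not analysed here.

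Regional marker lists differed less than cell type lists. Deep layer cortical genes had a median of 39 TPM, with Crym, a thyroid hormone binding protein, at 444, Etv1 at 306, Nr4a2 at 160 and Tbr1 at 149. Upper layer genes had a median of 25 TPM, led by Calb1, a calcium buffer that dentate granule cells also make, at 672, and by Lamp5 at 346. In hippocampal lists CA1 genes had a median of 46 TPM (Mpped1 202, Wfs1 149), CA2 and CA3 genes 36 (Cpne4 218, Rgs14 89) and dentate gyrus genes 17 (Calb1 672, C1ql2 59, Prox1 36).

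The lists for regions outside cortex and hippocampus had medians of 11 to 20.5 TPM, which overlap with the lower lists above. Striatal genes had a median of 12 TPM, none reached 100, Drd1 stood at 8 and Drd2 at 0. Cerebellar genes had a median of 11 TPM, with the cerebellar granule gene Gabra6 and En2 at 0 and Calb1, which is not particular to the cerebellum, highest. Thalamic and habenular genes had a median of 20.5 TPM, with the thalamic gene Gbx2 at 1 and Pou4f1 of the habenula at 0. Several genes stand in more than 1 of these lists, so the lists are not separate measurements.

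Functional groups were then read in the same way. The 14-3-3 proteins, small adaptors that bind phosphorylated partners, had the highest median, 3286 TPM, with 6 of 7 genes between 2564 (Ywhaq) and 6648 TPM (Ywhaz) and Sfn, the epithelial member, at 3. They held 2.36% of all TPM but 0.405% of counts. The listed CDS of these 6 genes, 738 to 768 nt, leave 138 to 168 nt after the 600 nt are taken off. The length that would bring both tables together was 110 nt for Ywhaz and 211 nt for Ywhaq. The high values per length of this group therefore rest on a short remainder, and its part in the rank was not tested. Glycolysis was next with a median of 1401 TPM and all 16 enzymes at 100 TPM or more. Y-linked genes aside, chromatin modifiers stood at the other end with a median of 24 TPM, close to the 20 TPM of all genes above 0.

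**Figure D4:**
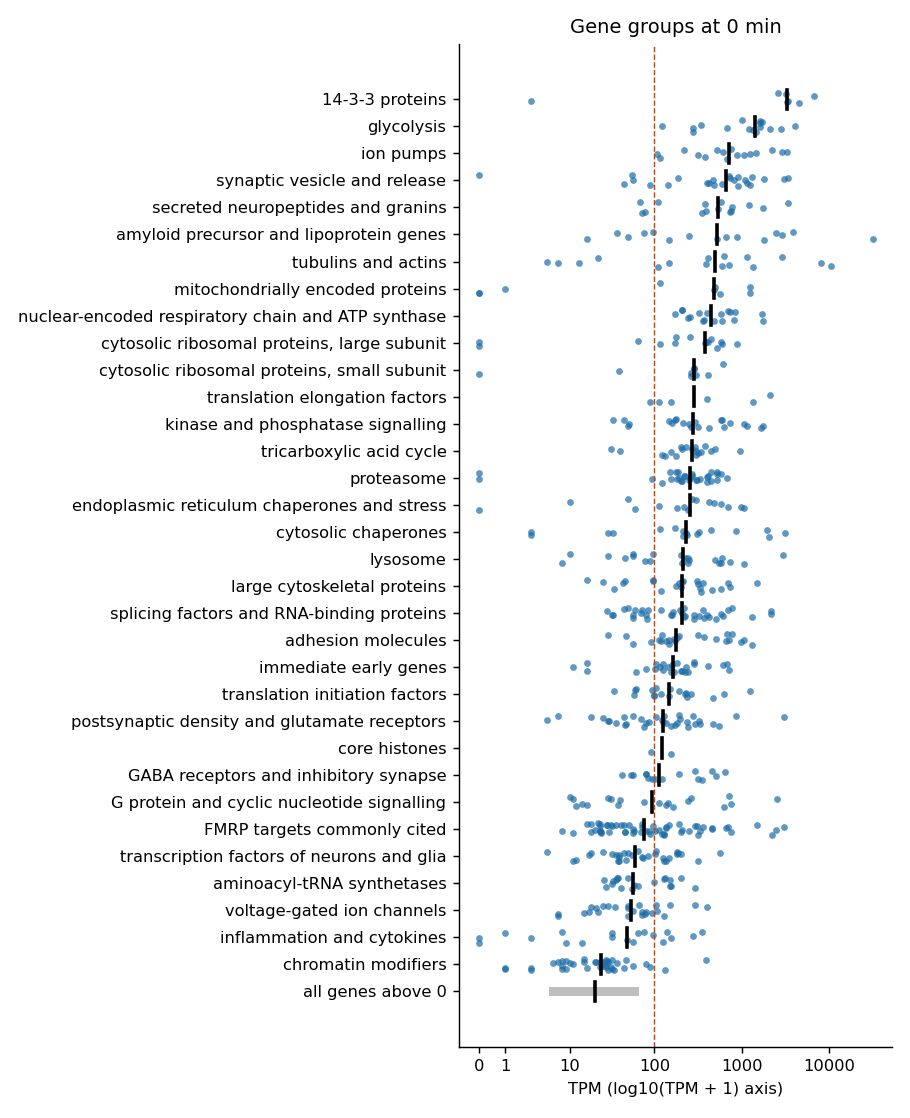
TPM of each gene (points) in the functional lists (Y-linked genes left out) at 0 min on a log10(TPM + 1) axis, sorted by list median (black bars), with the median and quartiles of all genes above 0 in the bottom row. The dashed line marks 100 TPM, and the medians run from 3286 TPM for 14-3-3 proteins to 24 TPM for chromatin modifiers.

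Energy metabolism was among the best covered groups. In glycolysis Aldoa had 4015 TPM, Pkm, pyruvate kinase, 2806, Tpi1, triose phosphate isomerase, 2084 and Eno1, enolase, 1721 (3.61 times its scaled density). Gapdh had 1637 TPM. The phosphofructokinase genes, which code for the enzyme that commits sugar to the pathway, were lowest, with Pfkm and Pfkp at 275 each and Pfkl at 122 TPM. Enzymes of the tricarboxylic acid cycle had a median of 271 TPM, led by Mdh2 with 955, Sdhb with 492, Idh3a with 450 and Sdha with 383, and Pcx, which refills the cycle in astrocytes, was lowest with 31. Nuclear genes of the respiratory chain and ATP synthase had a median of 443 TPM, from 1755 for Atp5b and 1725 for Atp5a1, the catalytic core of ATP synthase, over Atp5f1 (828) and Uqcrfs1 (814) to 172 for Ndufs1. All 18 of them reached 100 TPM.

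Proteins made inside mitochondria were seen as well, though the count table does not hold them. Of 13 such genes 9 are in the TPM table and 7 were above 0, with 4153 TPM in sum, 0.415% of the total. Cytochrome b (mt-Cytb) had 1253 TPM and mt-Co1, of cytochrome c oxidase, 1241. The complex I genes mt-Nd2, mt-Nd5, mt-Nd1 and mt-Nd4 had 558, 498, 487 and 115 TPM. The oxidase's other genes mt-Co3 and mt-Co2 stood at 1 and 0, far from mt-Co1 whose product theirs join, and mt-Atp6, of ATP synthase, at 0. What sets these 3 apart was not tested.

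Ion pumps had a median of 724 TPM, and all 16 genes reached 100. Atp1b1, the beta subunit of the sodium-potassium pump, had 3288 TPM, Atp6v1e1, of the vacuolar proton pump, 2882, and Atp6v1a 1439. The lowest was Atp2b3, a calcium pump of the plasma membrane, with 106 TPM. Voltage-gated ion channels, the pores of the action potential, stood well under the pumps with a median of 53 TPM. Of these channel genes 6 of 26 (23.1%) were at 100 TPM or more, against 10.3% of all genes. They included the sodium channel beta subunit gene Scn2b (398 TPM from 62 counts, 2.97 times its scaled density), Cacna2d1 (153) and Scn2a (128), and Scn3a and Cacna1g were lowest with 7 TPM each.

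Per length, the presynaptic list had a higher median than the postsynaptic one. The synaptic vesicle and release list had a median of 655.5 TPM, with Rab3a, the vesicle GTPase, at 3334 (2.11 times its scaled density), Syp at 3051 and Nsf, the ATPase that takes SNARE complexes apart, at 1819. Its lowest measured genes encode the giant active zone scaffolds, Pclo with 45 TPM, Rims1 with 55 and Bsn with 57. The postsynaptic list had a median of 124 TPM, with Camk2a at 3053, Camk2b at 852, Grin1, the obligate NMDA receptor subunit, at 553 and Gria2, an AMPA receptor subunit, at 468. Among its scaffolds Dlg4, which encodes PSD-95, had 295 TPM, while Shank1, Shank2 and Shank3 had 30, 46 and 18. In counts the distance was smaller, 2.52% of the library for the release list (exact 95% interval 2.51 to 2.53%) and 1.69% for the postsynaptic list (1.68 to 1.70%).

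Receptors and modulators of inhibition had a median of 111.5 TPM. Among them Gabbr1, a subunit of the metabotropic GABA receptor, had 460 TPM, and Gabrg1 was lowest with 42. Granins and peptide processing genes had a median of 537 TPM, led by Cpe with 3419, Scg5 with 1759 (134 counts, 4.94 times its scaled density), Pcsk1n with 1220 and Scg3, secretogranin III, with 772. The prohormone convertase gene Pcsk1 was lowest with 68 TPM. The peptide precursors that could be read, Pdyn and Penk, which encode opioid precursors, had 77 and 72 TPM, far less than the granins.

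The cytoskeleton held many ribosomes in both short and giant mRNAs. Actins, tubulins and cofilin summed to 26766 TPM, 2.68% of the total, with Actb at 10357, Actg1 at 7986, Cfl1, cofilin, at 2897 and Tubb4a, a beta-tubulin of neurons and myelin, at 1332. Tuba1c was lowest with 5 TPM. Large cytoskeletal proteins had a median of 210 TPM, led by Map2 (1479) and Sptan1 (692), both over 2-fold apart between the tables, Mapt, tau, (726) and Nefl (580), with Macf1, a giant linker of actin and microtubules, lowest at 16 TPM. Together they had 0.706% of TPM and 2.73% of counts (exact 95% interval 2.71 to 2.74%), the reverse of the order seen for 14-3-3 genes.

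The machinery of translation and protein turnover was moderately high. Of elongation factors, Eef1a2, the form of mature neurons, had 2076 TPM, Eef1a1 1350, Eef2 406 and Eef1b2 157, and Eef1d was lowest with 88. Initiation factors had a median of 147 TPM (Eif4h 1233, Eif4a1 626, Eif4a2 471, Eif5 264, lowest Eif5b 34), and aminoacyl-tRNA synthetases, which load amino acids onto tRNA, had 56.5 (Nars 290, Sars 204, Wars 157, Gars 152, lowest Iars 26). Of cytosolic ribosomal proteins 15 of 47 in the large and 9 of 32 in the small subunit are in the TPM table, with medians of 376 and 285 TPM in that order, so most of this class was not analysed here. Rpl6 had 593 TPM, Rpl7 586 and Rpl10a 522 (2.41 times its scaled density), while Rpl13a and Rpl15 were listed at 0 and Rpl14 was the lowest above 0 at 65. In the small subunit Rps6 had 614, Rps3a1 407, Rps3 297, Rpsa 288 and Rps19 39 TPM. Proteasome genes had a median of 257 TPM, led by Psmb7 (683), Psmb4 (582), Psmb1 (526), Psma2 (516) and Psma6 (516). Psmd1 was the lowest above 0 at 95, and Psmb2 and Psmb3 were listed at 0. Rpl13a, Rpl15, Psmb2 and Psmb3 have no entry in the count table, so their 0 is not read as a level.

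Cytosolic chaperones differed widely in level. Hspa8, Hsp90aa1, Hsp90ab1 and Dnaja1 had 3103, 2066, 1957 and 868 TPM. Hspa1a and Hspa1b, the Hsp70 genes that heat and injury induce, had 3 TPM each from 35 and 43 counts, so Hspa8 was 1034 times as high as Hspa1a on the TPM scale. These near-identical copies cannot be told apart with certainty. Dnajb1, another heat-inducible gene, had 215 TPM. In the endoplasmic reticulum Calr, calreticulin, had 1072 TPM, Hspa5, which encodes BiP, 986, Canx 696 and Pdia3 586. The stress response genes there were lower, Atf4 with 60 and Chac1 with 10 TPM, and Trib3 was at 0.

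Genes of RNA processing had a median of 207 TPM, led by Hnrnpk (2175), Hnrnpa2b1 (2158), Srsf5 (1302) and the neuronal Celf2 (771), with Cpeb1 lowest at 28. Transcription factors of neurons and glia had a median of 59.5 TPM, led by Mef2c (560), Olig1 (316), Nfix (200) and Bcl11a (188), and Rest, the repressor of neuronal genes outside neurons, was lowest with 5. For Bcl11a the scaled density of 1111 was above the TPM value. Among chromatin modifiers Smarca2, a remodelling ATPase, had 386 TPM (4.50 times its scaled density), the deacetylase gene Hdac2 131 and the remodeller gene Chd4 79. Tet1 and Tet2, which oxidise methylated cytosine, were lowest with 1 TPM each. The 60 mRNAs often cited as bound by FMRP had a median of 76.5 TPM. Of them 26 (43.3%) were at 100 TPM or more, against 10.3% of all genes. The 60 mRNAs held 1.71% of TPM but 5.54% of counts. Camk2a (3053), App (2445) and Map2 (1479) were among the highest.

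The groups that follow, like the initiation factors, tRNA synthetases and Y-linked genes above, were written down after the values had been seen and are given as values only. Lysosomal genes had a median of 213.5 TPM, with Psap, the precursor of saposins, at 2926, Ctsb at 1062, Laptm4a at 738 and Grn, progranulin, at 600 (4.44 times its scaled density), and Gusb lowest at 8. In the group around the amyloid precursor App had 2445 TPM and Itm2c and Itm2b 2857 and 1795, whereas the protease genes Bace1, Adam10 and Psen2 had 76, 37 and 16. Adhesion molecules had a median of 177.5 TPM (Nptn 1304, Clstn1 1060, Nrcam 988, Cadm3 775, lowest Lrrc4 29). Kinases and phosphatases had a median of 280.5 TPM (Prkar1b 1745, Ppp3ca 1658, Prkar1a 1152, lowest Akt1 33). G protein and cyclic nucleotide genes had a median of 95 TPM (Gnas 2537, Gnb1 760, Gnao1 707, Gnb2 634, lowest Adcy5 10).

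Immediate early genes, which neurons switch on within minutes of activity, held many ribosomes in these slices. Their median was 163.5 TPM, with 21 of 26 genes at 100 TPM or more (80.8%, against 10.3% of all genes), and they summed to 5668 TPM, 0.567% of the total. Egr1, a zinc finger transcription factor, had 721 TPM from 7042 counts, Fos 685 TPM from 3522 counts (exact Poisson interval 3407 to 3640) and Fosb 608 TPM from 1808 counts (1726 to 1893). Jun, their partner in the AP-1 dimer, had 417 TPM, Junb 285, Dusp1, a phosphatase that shuts off MAP kinases, 240, and Arc, a regulator of AMPA receptor traffic, 210. The group was uneven, since Npas4 and Sik1, also induced by activity, had 16 TPM each and Klf4 had 11. Egr1 was 45.1 times as high as Npas4 on the TPM scale. The library has no counterpart from undissected brain, so activity before, during and after slicing cannot be told apart.

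The start regions of these genes were searched for TGACG on either strand, the 5 letters at the core of the cyclic AMP response element that the factor CREB binds, in RefSeq windows from 250 bases before to 50 bases after each annotated start (GRCm38.p6). They are shown because these genes share a known class of element, and each line gives 30 bases, 5′ to 3′ on the strand of the gene, with the match in capitals. A CGTCA match is TGACG read on the other strand.
Fos, chr12:85473812-85473841, plus strand, match 66 bases before the start: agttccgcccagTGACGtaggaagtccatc
Fos, chr12:85473749-85473778, plus strand, 129 bases before: ggggcgtagagtTGACGacagagcgcccgc
Fosb, chr7:19310088-19310117, minus strand, 60 bases before: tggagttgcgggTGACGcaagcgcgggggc
Junb, chr8:84978837-84978866, minus strand, 106 bases before: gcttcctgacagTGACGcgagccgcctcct
Dusp1, chr17:26508598-26508627, minus strand, 143 bases before: cggtagggcgggTGACGtcaccgcccggtc
Nr4a1, chr15:101266765-101266794, plus strand, 69 bases before: ccgggccgtgtgCGTCAgtggcgcccccgc
Nr4a1, chr15:101266794-101266823, plus strand, 40 bases before: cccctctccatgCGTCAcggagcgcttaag

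Of the 20 immediate early genes with a window, 14 (70%) held TGACG, against 594 of 1440 genes with at least 100 TPM (41.25%) and 6228 of 27025 genes of the promoter table (23.0%). A gene with several annotated starts has several windows, and per window the shares were 17 of 32 (53.1%), 681 of 2014 (33.8%) and 6837 of 32851 (20.8%). The full palindrome TGACGTCA, which contains TGACG, was in 1 of the 20 genes, 76 of the 1440 (5.28%) and 549 of the 27025 (2.03%). In the lines above it is the Dusp1 window that holds it, with its last 3 letters in lower case. These matches describe letters in a window and not binding.

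Genes of inflammation had a median of 48 TPM and 5 of 19 at 100 TPM or more (26.3%, against 10.3% of all genes). Il1a, a cytokine released by injured tissue, had 355 TPM from 646 counts (597 to 698), Nfkbia, the feedback inhibitor of NF-kappaB, 275, Tnf 155 from 118 counts and Socs3, the inhibitor of cytokine receptors, 140 from 64 counts. Il1b had 64 TPM and Ptgs2, cyclooxygenase 2, 76. Tlr4 was lowest with 1 TPM from 11 counts, and Il6 and Timp1 were listed at 0. The 8 chemokine genes of the list were not analysed here. Microglia are a usual source of such cytokines; their 21 markers had a median of 41 TPM, and their part in these levels was not tested.

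Gene families were read by the share of each member. CaMKII footprints per length were 70.4% Camk2a, 19.6% Camk2b, 6.11% Camk2g and 3.85% Camk2d by TPM. Slc17a7 made up 92.0% of the vesicular glutamate transporters, with 7.42% for Slc17a6 and 0.618% for Slc17a8. The eEF1A pair was more even, 60.6% for Eef1a2 and 39.4% for Eef1a1. TPM of the listed Slc1a genes, a family that includes the glutamate transporters, was 71.6% Slc1a2, 20.7% Slc1a3, 5.21% Slc1a1 and 2.54% Slc1a4.

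Aldolase was 71.1% Aldoa, the form of muscle and most tissues, and 28.9% Aldoc, the brain form. AMPA receptor TPM was 47.0% Gria2, 27.9% Gria1, 17.2% Gria3 and 7.93% Gria4. NMDA receptor GluN2 genes were 62.2% Grin2b, 32.3% Grin2a, 3.23% Grin2d and 2.30% Grin2c, the last 2 being subunits of interneurons and cerebellum. Synaptotagmins, a family that includes calcium sensors of vesicles, were led by Syt1 with 36.7% and Syt11 with 29.0%. Syt4 (13.9%), Syt5 (8.56%), Syt13 (7.79%), Syt7 (1.92%), Syt3 (1.09%) and Syt2 (0.994%) followed. Synapsins were 49.0% Syn2, 47.7% Syn1 and 3.27% Syn3.

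In 2 families the leading share depends on the table. Enolase was 54.3% Eno1 by TPM but 25.6% by density, with Eno2, the neuronal form, at 45.7% and 74.4%, and Eno3 of muscle listed at 0. Calcium pumps of the plasma membrane were 69.5% Atp2b1 by TPM but 37.1% by density, close there to the 36.9% of Atp2b2. Eno1 and Atp2b1 are both among the genes whose 2 values differ over 2-fold.

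Subunits of 1 protein complex lay closer together than genes at large. In 29 complexes with at least 3 members in the count table (164 entries), the SD of log2 density within a complex had a median of 0.77, from 0.23 to 1.84, against 2.24 over all 10329 genes. It was below the value of all genes in 29 of 29. That value takes in the 31.9% of genes with fewer than 100 counts, and complex members without counts, such as Psmb2 and Psmb3, are left out. The comparison is therefore a description only. The complexes differed from each other more than most did within, with an SD of 1.51 among their medians. These are values of 1 library, and the complexes were chosen with earlier results of these data known.

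**Figure D5:**
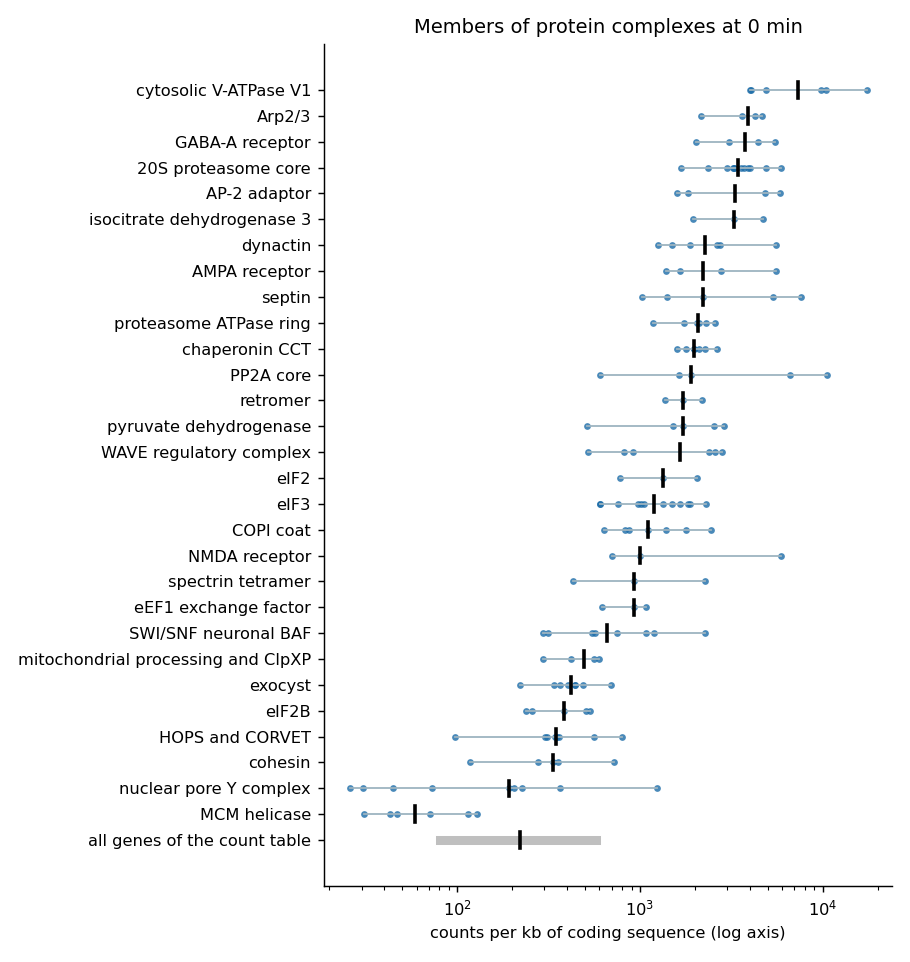
Density in counts per kb (horizontal log axis) of each member (points) of 29 protein complexes at 0 min, with the range as a line and the median as a black bar, sorted by median, and the median and quartiles of all 10329 genes in the bottom row. Medians run from 7330 counts per kb for the V1 part of the vacuolar proton pump to 58.9 for the MCM helicase.

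By density the lowest spread was that of the chaperonin CCT, a folding ring for actin and tubulin, where 7 members lay within 1.66-fold of each other, from 1588 counts per kb for Cct4 to 2632 for Cct7 (SD 0.23). On the TPM scale its SD was 0.48, with 1 member over 2-fold apart between the tables, and that of the Arp2/3 complex, at 0.40, was the lowest. The retromer, a sorting coat of endosomes, spanned 1.59-fold over 3 members, from Vps26a at 1372 to Vps35 at 2176. The ATPase ring of the proteasome spanned 2.18-fold over 6 members, from Psmc4 at 1178 to Psmc6 at 2568. Its proteolytic 20S core spanned 3.51-fold over 12 members, from Psma1 at 1688 to Psmb7 at 5923 counts per kb. The core's median of 3441 was above the ring's 2072, and the 2 ranges overlapped.

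Several complexes were wider. The PP2A phosphatase spanned 17.5-fold, from the regulatory gene Ppp2r2b at 602 counts per kb to the scaffold gene Ppp2r1a at 10517. In the NMDA receptor Grin1 had 5877 counts per kb against 1003 for Grin2b and 701 for Grin2a. In the WAVE complex, which drives actin branching and contains CYFIP1 or CYFIP2, both FMRP partners, Cyfip2 had 2809 counts per kb and Cyfip1 522. On the TPM scale Cyfip2 was 5.04 times Cyfip1. Some complex lists hold such alternative subunits, and their part in the spread was not tested. The neuronal BAF remodelling complex spanned 7.73-fold, from Arid1a at 295 to Smarcb1 at 2278. The widest was the Y complex of the nuclear pore, 48.1-fold, from Nup43 with 25.8 counts per kb (14 counts) to Sec13 with 1241, a protein that also belongs to the COPII coat.

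The MCM helicase, which unwinds DNA in dividing cells, had a median of 58.9 counts per kb, from Mcm3 at 31.0 to Mcm4 at 129, and was the lowest of the 29. At the top the V1 part of the vacuolar proton pump had a median of 7330, from Atp6v1c1 at 4022 to Atp6v1e1 at 17383. Other trafficking coats differed in level, with a median of 3331 counts per kb for the AP-2 adaptor of clathrin coats, 1111 for COPI, 422 for the exocyst and 348 for the HOPS and CORVET tethers. Among translation factors eIF3 had a median of 1193, eIF2 1339 and eIF2B, which recharges eIF2, 387 counts per kb. In each of these 3 the members spanned less than 4-fold.

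Density went down with CDS length across genes. The Spearman correlation of density with length over 10329 genes was -0.34, and that of counts with length 0.28. Genes of 603 to 800 nt had a median density of 636 counts per kb, those of 1000 to 1500 nt 275, those of 3000 to 4000 nt 133 and the 145 genes of 8000 nt or more 62.1. The last group had 2.79% of counts. The lowest entry of the table is 11 counts, which equals 110 counts per kb at a CDS of 700 nt and 1.49 at 8000 nt, and the part of this floor was not tested. Taken over the whole CDS without the 600 nt removed, the correlation was -0.077, and the medians were 92.7 counts per kb for the shortest class, 140 for 1000 to 1500 nt and 58.1 for the longest. The deposited names speak of CDS without their ends. If the counts leave the 600 nt out, this division lowers short CDS most by construction, so it does not show that the trend is absent. By TPM the correlation with length was -0.35. Genes are not independent replicates, and they share 1 library here.

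Some mRNAs were seen in the TPM table alone. It holds 8198 genes outside the count table, 1767 of them above 0, with 5.75% of all TPM. The highest were Mbp (6775), Cfl1 (2897), Kxd1 (1943), Pebp1 (1818) and Stmn4 (1386), followed by mt-Cytb and mt-Co1. In the other direction 65 genes of the count table were listed at 0 TPM. Most core histones (13 of 15), most cytosolic ribosomal proteins (32 of 47 and 23 of 32) and 9 of 24 neuropeptide and granin genes were not analysed here. Chromosome X carried 349 genes of the count table with 4.11% of counts, and chromosome Y 4 genes with 0.0227%.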

How the data were processed

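Footprints from 1 library were analysed, the 0 min library. The submitters' processing notes list, in no order, TopHat2 2.0.9, Bowtie2 2.1.0, cutadapt 1.7.1, SAMtools 0.0.19 and Trimmomatic 0.32, with mm10 as the build, and deposited names mention RSEM. No settings are stated. The authors deposited expected counts per gene, whole numbers as listed. Their deposited signal, called density here, equals the count over the CDS length less 600 nt in kilobases for 10329 of 10329 genes (relative tolerance 1e-09). Their deposited score is TPM rounded to whole numbers. The CDS length is that of 1 listed transcript. A further 19 columns of other libraries or ratios were not used.

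Lists, members and complexes were chosen with earlier results of these data known. Named were the 20 genes with the highest density, 10 with the most counts, 15 with the highest TPM, the 3 lowest densities from at least 100 counts, and of each list the 4 highest, the lowest and those at 0. Other genes were named after their values were seen. Some genes that this rule selects are not reported here. Exact Clopper-Pearson and Poisson intervals (95%) cover counting error only; reads had no stated molecular identifiers. Promoters on chromosome 18 were left out. Of the listed transcripts 10293 matched GRCm38.p6, 10112 with the same symbol. Python 3.11.15, pandas 2.3.3, numpy 2.4.6 and scipy 1.17.1 were used. The calculations were tested on simulated data. Alternatives covered the scale (counts, density, TPM), the CDS length, low counts and the leading genes.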

Additional observations from a re-analysis of the deposited data

How the results depend on the processing

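No paired analysis was possible because the profile is 1 library with no replicate number. Of 77 alternative values of the main descriptions 52 stayed within the set tolerance and 25 moved. The tolerance was a fixed fold for gene numbers and an interval of the median for cell types and complexes. For shares it was the counting interval, and for the correlation equality after rounding. Leaving out mitochondrially encoded genes, with 0.415% of TPM, could hardly move a share. The tally therefore does not measure how robust the descriptions are. The number of genes holding 50% of footprints was 600 by counts and 350 by density. Relative to all genes, the pan-neuronal ratio was 33.2 as medians of TPM and 13.2 as means, and the microglial ratio 2.05 and 0.721. Within the tolerance, the astrocyte ratio was 15.5 as medians and 28.3 as means, and the endothelial ratio 0.55 and 1.20. As means, then, astrocyte markers stood above pan-neuronal ones. The astrocyte list holds Clu, whose 2 values disagree. The mural cell ratio was 0.10 over all members and 2.59 among genes with at least 100 counts. Blood cell markers had a ratio of 0 by TPM, 0.494 by density, where 1 gene is left, 0.0211 as means and 0 without the highest gene. Shares of the library moved most between TPM, density and counts. They were 2.22, 2.14 and 1.64% for glycolysis, 2.68, 1.87 and 1.39% for tubulins and actins, 2.00, 1.87 and 2.52% for synaptic release, and 0.880, 0.909 and 1.69% for postsynaptic genes. For 14-3-3 proteins they were 2.36, 2.26 and 0.405%, for immediate early genes 0.567, 0.574 and 0.458%, and for chromatin modifiers 0.143, 0.113 and 0.566%. Counts favour long CDS by construction. The correlation of density with CDS length was -0.34. It was -0.54 among genes with at least 100 counts, -0.25 for CDS of at least 1000 nt and -0.35 by TPM. A minimum of 100 counts is a higher density floor for short CDS than for long ones. The part of this floor in the -0.54 was not tested. Over the whole CDS the correlation was -0.077, a division that lowers short CDS most if the counts leave the 600 nt out. The median spread within complexes stayed between 0.77 and 0.84 under all alternatives run. Genes with few counts are limited by depth. The choice of transcript and the few nt left after the 600 nt are off limit both density and TPM of short CDS.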
